A study of Homo sapiens with 6 samples.

Results

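hsa-miR-221 and hsa-miR-222 are a pair of neighbouring human microRNAs (miRNAs), and their 4 mature products, hsa-miR-221-3p, hsa-miR-221-5p, hsa-miR-222-3p and hsa-miR-222-5p, were taken by name from the 2588 mature miRNAs counted in each library. The counts came from small RNA sequencing of A549 (an established line from a human lung adenocarcinoma) and BEAS-2B (an established, immortalised line from normal human bronchial epithelium). Both lines were labelled WT in genotype, and each was either left untreated (control) or given TGF-β1 for 48 h at 1 ng/mL, here called the low dose, or at 5 ng/mL, the high dose. There were 6 libraries, 1 for each line and dose, so no test could be made, no p-value is given, and cell line, culture and library cannot be told apart. All intervals are 95% counting intervals, which leave out the error of the scaling between libraries and the variation between cultures.

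An miRNA hairpin is cut into a duplex of a 5p and a 3p strand, of which usually one is kept in the silencing complex and guides it to matching messages through its seed, bases 2 to 8. miR-221 and miR-222 are made from a shared primary transcript, and the best known target of their 3p strands is CDKN1B, which encodes the cell cycle inhibitor p27. Other described targets are CDKN1C and the receptor KIT, and both miRNAs are abundant in many epithelial tumours. TGF-β1 is a cytokine that slows the division of epithelial cells and drives them toward a mesenchymal state.

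The mature sequences show what the members share, so that the 3p strands can be read as one seed family in the results. They were taken from RefSeq on GRCh38.p14 and are written 5′ to 3′ with the seed in capitals, for the 3 of 4 members that had an entry in the table. The member without an entry was hsa-miR-221-5p.
hsa-miR-221-3p: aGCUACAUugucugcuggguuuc
hsa-miR-222-3p: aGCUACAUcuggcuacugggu
hsa-miR-222-5p: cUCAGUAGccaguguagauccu
The 3p strands had the same first 8 bases and the same seed, GCUACAU, which no other mature miRNA in the table carried. Aligned from the 5′ end without gaps, 11 of 21 positions were identical, so all differences lay after the seed. The seed of hsa-miR-222-5p was UCAGUAG and was carried by no other entry.

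Both hairpins lie on the minus strand of chromosome X, with hsa-miR-221-3p at chrX:45746180-45746202, hsa-miR-222-3p at chrX:45747036-45747056 and hsa-miR-222-5p at chrX:45747073-45747094. The MIR221 hairpin spans chrX:45746157-45746266 and the MIR222 hairpin chrX:45747015-45747124, with 748 bases between them. In the GENCODE 29 annotation, both hairpins are in the intron of the transcript MIR222HG-201 of their non-coding host gene MIR222HG and outside its shorter transcript MIR222HG-202. The hairpins are shown with the 3p strand in capitals, to place the abundant strand in its precursor.
MIR221: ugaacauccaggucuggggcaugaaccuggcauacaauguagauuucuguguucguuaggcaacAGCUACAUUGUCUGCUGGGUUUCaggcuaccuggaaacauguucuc
MIR222: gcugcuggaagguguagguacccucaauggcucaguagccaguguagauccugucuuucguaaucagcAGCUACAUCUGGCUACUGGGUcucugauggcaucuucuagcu

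Total counts ranged from 633318 to 900424 per library, and hsa-miR-21-5p alone took 35.4 to 57.2% of them. The untreated BEAS-2B library stood apart with the lowest share of hsa-miR-21-5p and a trimmed mean of M-values (TMM) factor of 1.32, against 0.829 to 1.02 in the other 5 libraries, and every BEAS-2B comparison with control rests on it. The labels call both lines epithelial, but of 6 epithelial marker miRNAs hsa-miR-205-5p had 0 to 2 counts and hsa-miR-141-3p 1 to 8. The 6 markers summed to 219 to 384 counts in A549 and 297 to 472 counts in BEAS-2B cells, most of them from hsa-miR-200b-3p (139 to 356). The sums of 5 blood markers were 11 to 23 and 7 to 39 counts in A549 and BEAS-2B cells, those of 3 muscle markers 0 to 3 and 1 to 2, and hsa-miR-122-5p, the liver marker, had 1 to 6 and 7 to 14. The endothelial marker hsa-miR-126-3p had 1003 to 1280 counts in A549 and 197 to 393 in BEAS-2B cells, and the part of these marker levels in the results was not tested.

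hsa-miR-221-3p, the main strand of the miR-221 hairpin, was counted 9233, 7116 and 6521 times in A549 cells (control, low and high dose), and 24337, 13668 and 14591 times in BEAS-2B cells. After TMM scaling over the 6 libraries to a common library size, its normalised counts in the same order were 9607, 7145 and 7589 in A549 cells and 18721, 15824.5 and 14305 in BEAS-2B cells. All 3 BEAS-2B libraries were above all 3 A549 libraries, and within each line the control was the highest. It was the 10th to 13th most abundant miRNA in the A549 libraries and the 7th in every BEAS-2B library.

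hsa-miR-222-3p, the main strand of the neighbouring hairpin, was counted 1004, 931 and 1200 times in A549 cells and 2265, 1093 and 1221 times in BEAS-2B cells. Its normalised counts were 1045, 935 and 1396.5 in A549 cells and 1742, 1265 and 1197 in BEAS-2B cells. Here the lines overlapped, because A549 cells at the high dose lay above both treated BEAS-2B libraries on this scale, although it lay below the high-dose BEAS-2B library under 3 of 6 scalings. Its rank was 43 to 58 in A549 and 33 to 42 in BEAS-2B cells.

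The 5p strands, which are the lesser products of both hairpins, were scarce. hsa-miR-221-5p was counted 124, 105 and 71 times in A549 cells and 307, 191 and 230 times in BEAS-2B cells, which are normalised counts of 129, 105 and 82.6 against 236, 221.1 and 225. As for its partner strand, the lines did not overlap. hsa-miR-222-5p had 14, 19 and 11 counts in A549 cells and 32, 19 and 25 in BEAS-2B cells, with normalised counts of 14.6, 19.1 and 12.8 against 24.6, 22.0 and 24.5, a gap between the lines that single libraries of this depth resolve poorly.

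**Figure D1:**
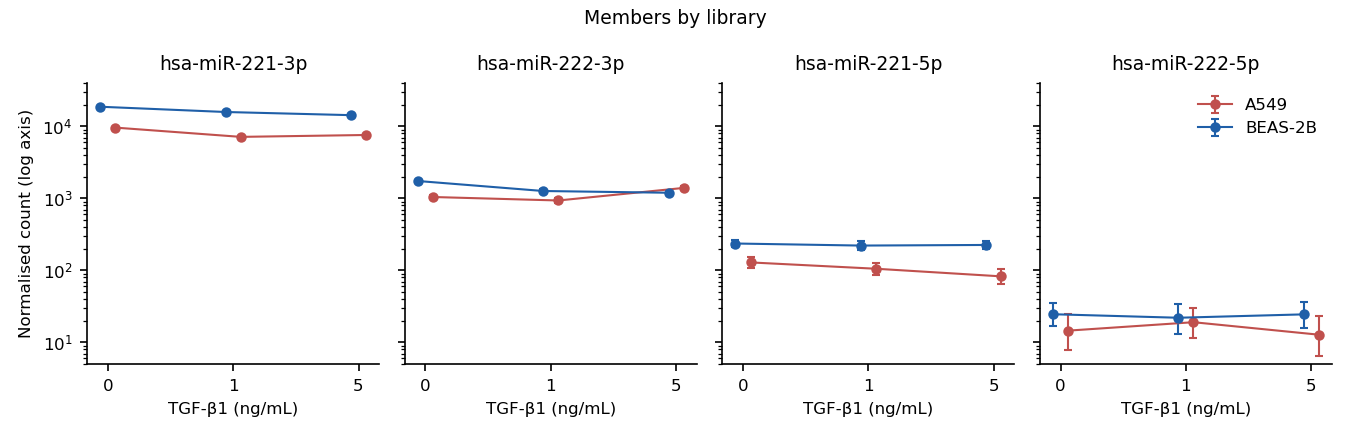
Normalised counts (vertical log axis) of the 4 members against TGF-β1 dose (ng/mL) in A549 (red) and BEAS-2B cells (blue). Each point is 1 library and bars are exact 95% Poisson counting intervals. The order hsa-miR-221-3p, hsa-miR-222-3p, hsa-miR-221-5p and hsa-miR-222-5p holds in every library, and for hsa-miR-222-3p the lines cross at the high dose, at 1396.5 in A549 and 1197 in BEAS-2B cells, an order that turned under 3 of 6 scalings.

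Of all counts in a library, the 4 members together took 1.31% in A549 control cells, 0.907% at the low and 1.23% at the high dose. In BEAS-2B cells they took 3.66%, 2.28% and 2.09%. With hsa-miR-21-5p left out of the totals, A549 cells had shares of 2.80, 2.10 and 2.35% and BEAS-2B cells of 5.67, 4.88 and 4.89%. hsa-miR-221-3p made up 83.6 to 91.3% of the members' counts. Counts of different miRNAs depend on how well each one is ligated and amplified, so these shares are of reads and not of molecules.

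Ordered by normalised count, neighbouring libraries of hsa-miR-221-3p all differed beyond counting error, the smallest step being a log2 ratio of 0.09 (0.04 to 0.14) between the A549 doses. In both lines its step between the doses was 0 under quantile normalisation and had the other sign without scaling. The order of the doses therefore depended on the scaling. For hsa-miR-222-3p the order under TMM was BEAS-2B control, A549 high dose, BEAS-2B low dose, BEAS-2B high dose, A549 control and A549 low dose. The BEAS-2B doses were the only neighbours of hsa-miR-222-3p whose interval held 0, with a log2 ratio of 0.08 (-0.04 to 0.20). For hsa-miR-221-5p the only step beyond counting error was that from low-dose BEAS-2B down to A549 control, with a log2 ratio of 0.77 (0.44 to 1.12). No neighbouring libraries of hsa-miR-222-5p could be told apart at this depth.

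The question of the study was how TGF-β1 alters miRNA levels in these cells. Its criteria were a normalised data value (ND) of 8 or more and a fold change of 1.4 or more. Here the ND was log2(normalised count + 1), the greater ND of the libraries compared had to reach 8 (a normalised count of 255), and the log2 ratio was the difference in ND. Both 3p strands met the ND criterion in every library, and both 5p strands met it in none.

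In A549 cells, hsa-miR-221-3p was lower at both doses and hsa-miR-222-3p changed direction between the doses, but neither passed the criteria at either dose. The log2 ratio of hsa-miR-221-3p to control was -0.43 (-0.47 to -0.38) at the low and -0.34 (-0.39 to -0.29) at the high dose. That of hsa-miR-222-3p was -0.16 (-0.29 to -0.03) and 0.42 (0.30 to 0.54), the latter a 1.34-fold higher level. Thus 0 of the 2 strands that met the ND criterion passed at either dose, while 48.9% of all miRNAs that met it passed at the low (67 of 137) and 53.2% at the high dose (75 of 141). At the low dose, hsa-miR-221-3p was short of 1.4-fold at 1.34-fold lower, and it passed under 4 of 7 scalings.

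In BEAS-2B cells, both 3p strands were lower than in the control at both doses. The log2 ratio of hsa-miR-221-3p was -0.24 (-0.27 to -0.21) at the low and -0.39 (-0.42 to -0.36) at the high dose, the latter 1.31-fold lower. For hsa-miR-222-3p it was -0.46 (-0.57 to -0.36) and -0.54 (-0.64 to -0.44), and the 1.46-fold lower level at the high dose was the only value among the members' comparisons with control that passed the criteria. Of the 2 strands that met the ND criterion, 0 passed at the low dose, where 29.2% of all miRNAs that met it passed, and 1 passed at the high dose, where 36.0% passed in either direction and 16.0% as lower. The interval of hsa-miR-222-3p at the high dose held the 1.4-fold boundary, and its log2 ratio was -0.36 when total counts without hsa-miR-21-5p set the scale.

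Among all miRNAs that met the ND criterion, the median log2 ratio to control was, at the high dose, -0.03 in A549 and -0.08 in BEAS-2B cells. In BEAS-2B cells, 16 of 125 were lower than hsa-miR-222-3p and 30 of 125 lower than hsa-miR-221-3p. In A549 cells, 51 of 141 were lower than hsa-miR-221-3p and 44 of 141 were higher than hsa-miR-222-3p, so both members lay within the interquartile range of -0.49 to 0.55.

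The 5p strands resolved few changes. hsa-miR-221-5p had a high-dose log2 ratio to control of -0.64 (-1.08 to -0.21) in A549 cells and -0.07 (-0.32 to 0.18) in BEAS-2B cells. For hsa-miR-222-5p these were -0.17 (-1.47 to 1.06) and -0.01 (-0.82 to 0.79), so no change was detectable with so few counts. At the low dose, the intervals of both 5p strands held 0 in both lines, with log2 ratios for hsa-miR-221-5p of -0.29 (A549) and -0.09 (BEAS-2B) and for hsa-miR-222-5p of 0.37 and -0.16.

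**Figure D2:**
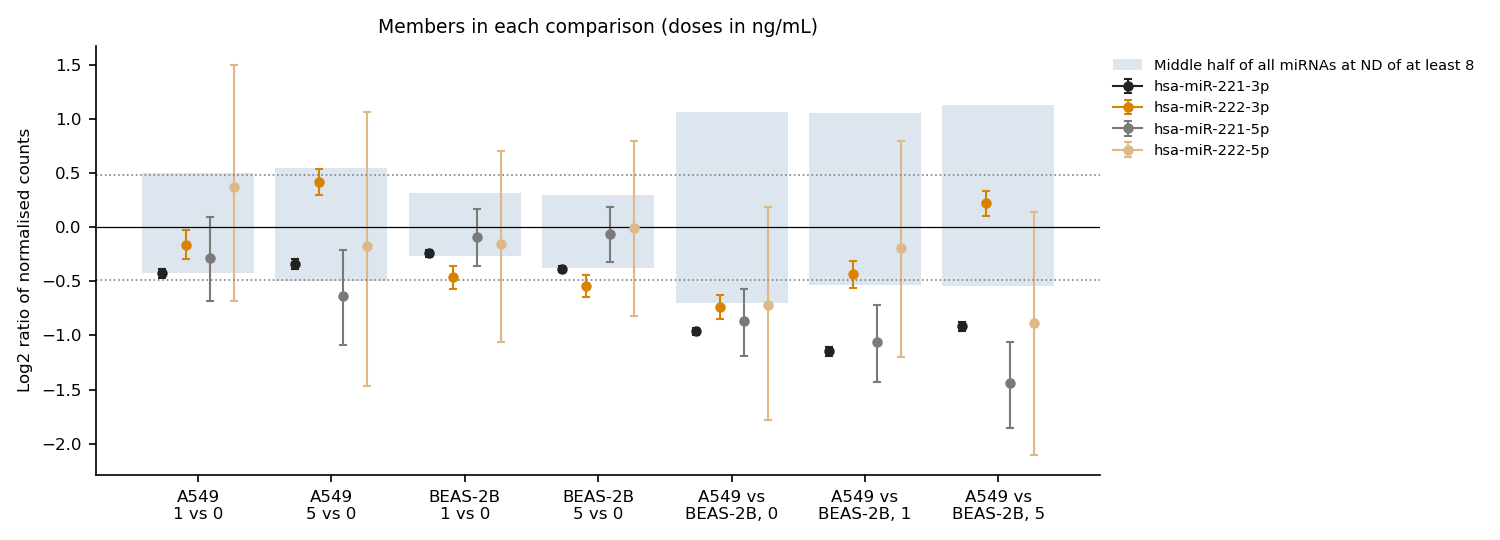
Log2 ratios of normalised counts (vertical axis) of the 4 members in 7 comparisons, with bars for 95% counting intervals, blue boxes for the interquartile range of all miRNAs that met the ND criterion, and dotted lines at the 1.4-fold boundary (0.49 in either direction). hsa-miR-221-3p lies below 0 in all 7 comparisons, whereas hsa-miR-222-3p lies above 0 in high-dose A549 cells (0.42) and between the high-dose lines (0.22, with the other sign under 3 of 6 scalings).

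As the 3p strands share a seed, their counts were also added. The summed normalised count was 10652, 8080 and 8985 in A549 cells (control, low and high dose), and 20463, 17090 and 15502 in BEAS-2B cells. The seed family was therefore lower after treatment at both doses in both lines, as it was under all 7 scalings. Its log2 ratio to control in A549 cells was -0.40 (-0.44 to -0.36) at the low and -0.25 (-0.29 to -0.20) at the high dose. In BEAS-2B cells it was -0.26 (-0.29 to -0.23) and -0.40 (-0.43 to -0.37), so in each line the treated level was 0.758 to 0.844 of the control. The size depended on the scaling, at -0.48 to -0.09 for the high dose in A549 and -0.81 to -0.05 in BEAS-2B cells.

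Between the doses, hsa-miR-222-3p was higher at the high than at the low dose in A549 cells, with a log2 ratio of 0.58 (0.45 to 0.70) or 1.49-fold. It was the only one of the 2 strands that met the ND criterion to pass there, where 8.46% of all such miRNAs passed as higher (11 of 130), and 8 of 130 were higher still. hsa-miR-221-3p had a log2 ratio of 0.09 (0.04 to 0.14) in the same comparison. In BEAS-2B cells the ratios between the doses were -0.15 (-0.18 to -0.11) for hsa-miR-221-3p and -0.08 (-0.20 to 0.04) for hsa-miR-222-3p, and 0 of 2 passed, against 6.61% of all miRNAs that met the ND criterion (8 of 121). These last 3 values had the other sign or 0 under at least 1 other scaling, whereas hsa-miR-222-3p was higher in A549 cells under all 7 and past the criteria under 6, with an interval that held the 1.4-fold boundary. The A549 increase in hsa-miR-222-3p rests on the single high-dose library, since the low-dose library lay below the control.

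The untreated lines differed in both 3p strands. The level of hsa-miR-221-3p in A549 was 1.95-fold lower than in BEAS-2B cells (log2 ratio -0.962, -0.997 to -0.928), and that of hsa-miR-222-3p was 1.67-fold lower (-0.74, -0.85 to -0.63). Both of the 2 strands passed as lower, where 28.1% of all miRNAs that met the ND criterion did (38 of 135), and the median of all was 0.27. For hsa-miR-221-3p the gap remained past the criteria at the low dose (-1.15, -1.19 to -1.11) and the high dose (-0.91, -0.96 to -0.87).

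For hsa-miR-222-3p the gap between the lines was smaller at the low dose (-0.44, -0.56 to -0.31), and at the high dose A549 cells had the higher level (0.22, 0.11 to 0.34). As lower in A549 cells, 1 of the 2 strands passed at the low dose, where 25.9% of all miRNAs that met the ND criterion did, and 1 at the high dose, where 29.5% did. The sign of hsa-miR-222-3p at the high dose depended on the scaling, being higher in 3 and lower in 3 of 6 scalings (-0.07 to 0.25). hsa-miR-221-5p was lower in A549 cells at each dose, like its partner strand, with log2 ratios of -0.87, -1.06 and -1.44 in the control and at the low and high dose, whereas the intervals of hsa-miR-222-5p held 0 at each dose.

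The lines were then compared in their response. At the high dose, the log2 ratio to control of hsa-miR-221-3p in A549 minus that in BEAS-2B cells was 0.048 (-0.007 to 0.10), and it was -0.18 (-0.24 to -0.13) at the low dose. For hsa-miR-222-3p the difference was 0.96 (0.80 to 1.12) at the high and 0.30 (0.14 to 0.47) at the low dose. Among 109 miRNAs at or above the ND criterion in both lines, the median difference at the high dose was 0.004, with quartiles of -0.65 and 0.60. A more positive difference than that of hsa-miR-222-3p was seen in 12, and than that of hsa-miR-221-3p in 51. Negative differences of equal or greater size are not part of these counts. The sign of the hsa-miR-221-3p difference at the high dose flipped with the scaling (-0.58 to 0.62), and that of hsa-miR-222-3p did not (0.74 to 1.53).

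The ratio of the 3p strands within a library needs no scaling. In A549 cells there were 0.109 counts of hsa-miR-222-3p for each count of hsa-miR-221-3p in the control, 0.131 at the low and 0.184 at the high dose. In BEAS-2B cells the ratio was 0.0931, 0.0800 and 0.0837 in the same order. All 3 A549 libraries lay above all 3 BEAS-2B libraries, and treatment went with a higher ratio in A549 and a lower one in BEAS-2B cells.

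Against control, the log2 change of this ratio in A549 cells was 0.27 (0.13 to 0.40) at the low and 0.76 (0.63 to 0.89) at the high dose, the latter 1.69-fold. From the low to the high dose it was 0.49 (0.36 to 0.62). In BEAS-2B cells it was -0.22 (-0.33 to -0.11) and -0.15 (-0.26 to -0.05). Each of these changes was larger than counting error.

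To set these values in context, the same ratio was taken for the 21 other pairs of abundant miRNAs whose hairpins lie within 10 kb on one strand, a background whose limits were set after the data were seen. At the high dose, 66.7% of those pairs in A549 cells changed at least 1.4-fold against control, 23.8% did in BEAS-2B cells, and 19.0% did between the A549 doses. The miR-222-3p to miR-221-3p ratio passed 1.4-fold in high-dose A549 cells, where 7 of 21 pairs changed more, and between the doses, where 3 of 21 changed more. In BEAS-2B cells 11 of 21 pairs changed more at the high dose. Some pairs share a miRNA or a locus, so they are not independent. Strands made from several hairpins were left out, so some neighbouring pairs are missing and some hairpins are represented by their lesser strand.

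**Figure D3:**
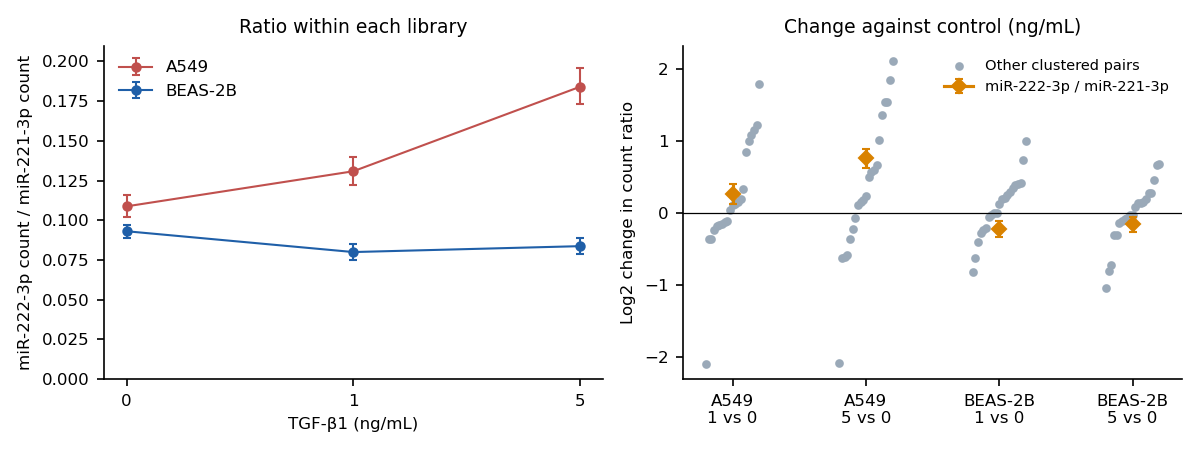
Left, counts of hsa-miR-222-3p per count of hsa-miR-221-3p (linear axis from 0) against TGF-β1 dose in each line, with 95% counting intervals; right, log2 change of the ratio against control (orange diamonds) beside the 21 other clustered pairs (grey). The A549 ratio goes from 0.109 to 0.184 while the BEAS-2B ratio stays between 0.0800 and 0.0931, and the diamonds lie among the grey points.

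The strands of each hairpin were compared in the same way. The 5p strand was 1.34% of the counts of the miR-221 hairpin on average and 1.53% of those of the miR-222 hairpin, so both hairpins gave almost only their 3p strand. There were 76 other hairpins with both strands counted in every library, at a mean count of at least 10. Among them the lesser strand had a median share of 11.8%, and it was lower in 8 than in miR-221 and in 10 than in miR-222. This limit left out hairpins whose lesser strand was nearly absent, so the median and these counts hold only among the 76. Across the 6 libraries, the 5p share was 1.08 to 1.55% for miR-221 and 0.908 to 2.01% for miR-222. The log2 change of the 5p to 3p ratio of miR-221 at the high dose was -0.30 (-0.73 to 0.12) in A549 and 0.32 (0.07 to 0.57) in BEAS-2B cells. For miR-222 it was -0.61 (-1.75 to 0.54) and 0.54 (-0.23 to 1.30). Of these values, that of miR-221 in BEAS-2B cells alone had an interval that left out 0.

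Over all comparisons of libraries, 5 of 18 changes of the 5p to 3p ratio had an interval that left out 0. All 5 involved a high-dose library, as did most of the comparisons made. They share libraries and are not independent, and the same count was not made for the other hairpins. From the low to the high dose in A549 cells, the log2 change was -0.44 (-0.88 to -0.0014) for miR-221 and -1.15 (-2.23 to -0.08) for miR-222, and 33 and 6 of the 76 other hairpins changed more. At the high dose, the ratio in A549 relative to BEAS-2B cells was lower by a log2 change of -0.53 (-0.92 to -0.15) for miR-221 and -1.16 (-2.19 to -0.13) for miR-222, where 45 and 24 of 76 differed more. The miR-222 values rest on the 11 counts of hsa-miR-222-5p in high-dose A549 cells.

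Profiles over the 6 libraries were compared by the root mean square (RMS) difference of centred log2 values, among 155 other miRNAs that reached an ND of 8 in 1 library or more. The profile nearest to hsa-miR-221-3p was that of hsa-miR-941, at an RMS of 0.109 against a median of 0.772 over all 155. The next were hsa-miR-186-5p, hsa-let-7c-5p, hsa-let-7a-3p and hsa-miR-140-5p, at 0.134 to 0.197. hsa-miR-941 was picked for its likeness over these libraries, so its higher level in BEAS-2B cells follows from that choice. Its normalised counts were 425, 339 and 421 in A549 against 985, 746 and 721 in BEAS-2B cells.

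Nearest to hsa-miR-222-3p was hsa-miR-185-5p, also at an RMS of 0.109, against a median of 0.582. Its normalised counts were 256, 246 and 333 in A549 against 393, 299 and 246 in BEAS-2B cells. That the high dose was the highest among A549 cells, as for the member, follows from the choice by likeness. hsa-miR-15b-3p, hsa-miR-26a-5p, hsa-miR-25-3p and hsa-miR-191-5p followed at 0.179 to 0.227. The 2 members themselves differed by an RMS of 0.416, with 30 of 155 profiles closer to hsa-miR-221-3p than its neighbour was, and 35 closer to hsa-miR-222-3p. These values describe 6 libraries and carry no test.

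Other miRNAs described as acting on inhibitors of cyclin-dependent kinases, the products of CDKN1A, CDKN1C or CDKN2A, had medians of opposite sign in the lines. In each line the list held members of both signs. All 7 of them met the ND criterion at the high dose. In A549 cells 0 passed as higher and 3 as lower, where 27.0% of all miRNAs passed as higher and 26.2% as lower. The 3 were hsa-miR-17-5p (-0.70, -0.90 to -0.51), hsa-miR-20a-5p (-0.60, -0.75 to -0.44) and hsa-miR-106b-5p (-1.28, -1.59 to -0.99), and the list's median log2 ratio was -0.47. Short of the criteria there, hsa-miR-93-5p (-0.47) was lower, while hsa-miR-92a-3p (0.30), hsa-miR-25-3p (0.41) and hsa-miR-24-3p (0.46) were higher. In BEAS-2B cells 3 passed as higher and 0 as lower, where 20.0% of all miRNAs passed as higher and 16.0% as lower. Those were hsa-miR-17-5p (0.66), hsa-miR-20a-5p (0.80) and hsa-miR-92a-3p (0.53), and the median was 0.37 but -0.04 under total-count scaling. Short of the criteria there, hsa-miR-106b-5p (0.37) and hsa-miR-93-5p (0.29) were higher, while hsa-miR-25-3p (-0.08) and hsa-miR-24-3p (-0.32) were lower. The related sequences of hsa-miR-17-5p, hsa-miR-20a-5p, hsa-miR-106b-5p and hsa-miR-93-5p could share reads in the counting, so their separate values are uncertain.

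Other miRNAs of chromosome X were set beside the members for their position alone. In A549 cells at the high dose, 9 of 144 met the ND criterion and their median log2 ratio was -1.03. Of the 9, 1 passed as higher and 6 as lower, where 27.0% of all miRNAs passed as higher and 26.2% as lower. Among them were hsa-miR-450b-5p (-1.53), hsa-miR-361-3p (-0.89) and hsa-miR-424-3p (0.58). The hairpins of hsa-miR-450b-5p and hsa-miR-424-3p lie within 10 kb of each other, so the 9 are not independent. hsa-miR-374b-5p (-1.23) and hsa-miR-374c-3p (-1.20), both among those lower, had nearly equal ratios, as they did between the untreated lines (1.09 and 1.07). Whether the counts of these miRNAs share reads was not tested. In BEAS-2B cells 10 met the criterion, 2 passed as higher and 2 as lower, near the shares of 20.0% and 16.0% over all miRNAs, and the median was 0.08, with a sign that flipped under 4 of 7 scalings. Between the untreated lines, 6 of the 11 that met the criterion passed as higher in A549 cells and 0 as lower, where 40.7% and 28.1% of all miRNAs did. The list's median log2 ratio was 1.05, against 0.27 over all miRNAs, whereas both 3p members were lower.

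The size of the members' changes depended on the scaling, of which 7 were computed within a line and 6 between lines. The share of all miRNAs that passed was computed under TMM alone, so a pass under another scaling has no share beside it. hsa-miR-222-3p was higher in high-dose A549 cells under all 7 (0.25 to 0.58), and past the criteria under total-count scaling alone. hsa-miR-221-3p was lower there under all 7 (-0.58 to -0.18) and passed under 2. In high-dose BEAS-2B cells, hsa-miR-222-3p was lower under all 7 (-0.95 to -0.36) and passed under 5, and hsa-miR-221-3p was lower under 6 and passed under 3. Its value was 0 under quantile normalisation, which gives equal values to equal ranks. Between the untreated lines both were lower in A549 cells under all 6, and hsa-miR-222-3p passed under all 6 and hsa-miR-221-3p under 5.

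**Figure D4:**
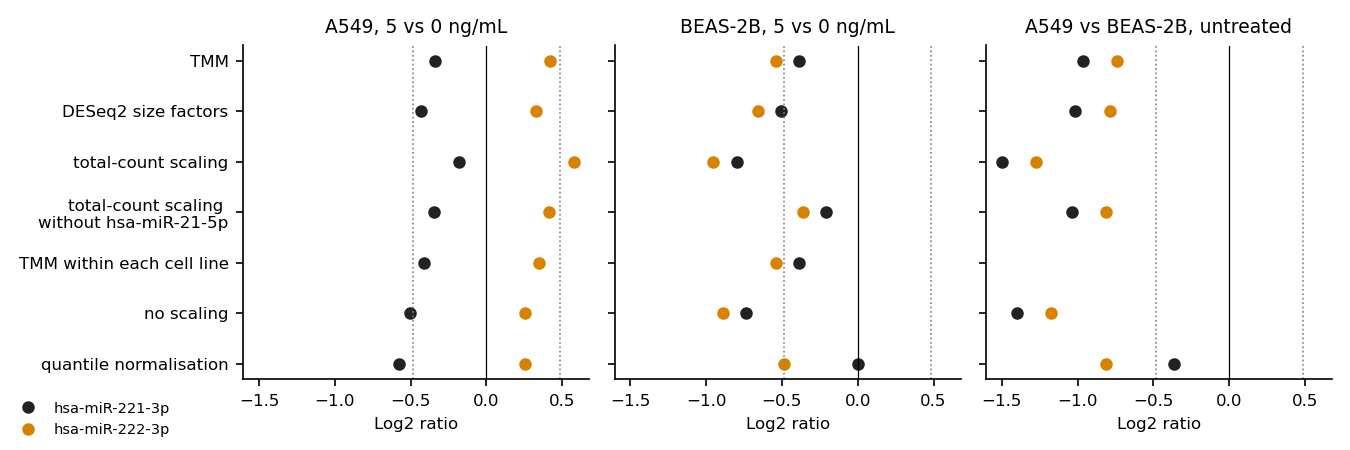
Log2 ratios (horizontal axis) of hsa-miR-221-3p (black) and hsa-miR-222-3p (orange) under each scaling in 3 comparisons, with dotted lines at the 1.4-fold boundary; each point is 1 ratio of 2 libraries. Points stay on one side of 0 except for the 0 of hsa-miR-221-3p in BEAS-2B cells under quantile normalisation. The distance between black and orange is fixed by the counts under every scaling other than quantile normalisation.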

How the data were processed

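The data were counts of 2588 mature miRNAs in 6 small RNA libraries, as deposited by the authors, whole numbers without normalisation. Per the labels, total RNA was taken with Trizol and libraries were made with the NEBNext Multiplex Small RNA kit. The submitters' processing notes name Bowtie2 and bedtools. Their versions, the genome build, the miRNA annotation release, the use of strand and any molecular identifiers are not given in the sources used here, so intervals cover counting error only. Total counts were 633318 to 900424, and a count of 0 allows up to 3 counts (3.33 to 4.74 CPM, counts scaled to a common total).

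Groups were taken from the labels, with 1 library each. Counts were scaled by TMM (edgeR 4.0.16, R 4.3.3) to the mean effective library size of 749498. This choice was made here, as the study's own scaling of miRNA counts is not given in the sources used here. ND was log2(normalised count + 1), so that a pseudocount of 1 slightly understates changes of scarce miRNAs. Ratios have exact Clopper-Pearson intervals, levels exact Poisson intervals, and changes of ratios delta-method Poisson intervals, all at 95%. The 76 hairpins compared for strand use had a mean count of at least 10 for both strands and a count of both in every library. Clustered pairs were pairs of hairpins within 10 kb on one strand. Each hairpin was represented by its most counted mature strand among those made from that hairpin alone. Strands made from several hairpins were left out, so a hairpin could be dropped or be represented by its lesser strand, as with hsa-miR-16-2-3p. Both miRNAs of a pair had an ND of at least 8 in 1 library or more and were counted in every library. The limits of distance and ND were set after the data were seen. Other steps ran in Python 3.11.15 with scipy 1.17.1, pandas 2.3.3 and numpy 2.4.6, and 2281 of the 2588 names matched the RefSeq table of mature sequences.

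The miRNAs named were the 4 members, the 5 nearest profiles of each 3p member, members of the lists, cell type markers and hsa-miR-21-5p. The members and lists were chosen with earlier results of these data known. A further list of miRNAs is not reported here. Alternatives tried were size factors from DESeq2 1.42.0, total-count scaling with and without hsa-miR-21-5p, quantile normalisation (limma 3.58.1), TMM within each line, no scaling, pseudocounts of 0.5 and 10, other ND and fold limits, and, for the list medians and the summed 3p strands, the same scalings added after the data were seen. The scripts were tested on simulated counts. In the first draw the intervals covered the true ratio less often than their nominal level, and the test was then changed to repeated draws with known library sizes, so that the error of the scaling is not part of it.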

Additional observations from a re-analysis of the deposited data

Results flagged for a closer look

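The count ratio of hsa-miR-222-3p to hsa-miR-221-3p moved in opposite directions in the lines, higher in both treated A549 libraries and lower in both treated BEAS-2B libraries. At the high dose its log2 change against control was 0.76 in A549 against -0.15 in BEAS-2B cells, a difference of 0.91 (95% counting interval 0.75 to 1.08). At the low dose the changes were 0.27 and -0.22, a difference of 0.49 (0.31 to 0.66). The difference was not tested, since there was 1 library per group, and the doses of a line share a control library. Of the 21 other clustered pairs, 3 likewise had one sign at both doses in A549 cells and the other sign at both doses in BEAS-2B cells, and 10 had a larger difference at the high dose.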

How the results depend on the processing

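No paired analysis was possible because each group had 1 library and the labels give no replicate numbers, and no library could be left out of a group. The values below are log2 ratios of miR-221-3p and miR-222-3p and numbers of the 4 members past the criteria. The share of all miRNAs past the criteria was computed only under the main TMM scaling and limits. The numbers of members under other settings have no such share beside them, so no result about the members is drawn from them. Of 631 values recomputed, 415 stayed within their interval or within 1.5 times, and 216 moved. No called value changed sign, but this was checked only for log2 ratios of members that passed the criteria. Of 276 log2 ratios of the members, recomputed under other scalings and pseudocounts, 70 moved and 11 changed sign. Changes in ratios within a library were recomputed only with a pseudocount added to both counts, and of 36 such values 0 moved. A scaling factor of a library cancels in these ratios, so that count cannot show that they are steadier than the log2 ratios. The scale itself shifted: total-count scaling moved the median of all miRNAs by -0.41 in high-dose BEAS-2B cells, by 0.16 in high-dose A549 cells and by -0.54 between the untreated lines.

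With DESeq2 size factors, miR-221-3p at the high dose was -0.43 (A549) and -0.51 (BEAS-2B), miR-222-3p was -0.66 in BEAS-2B cells, and miR-221-3p was -0.19 between the BEAS-2B doses and -1.01 between the untreated lines. There, 1 member passed at the low dose in each line, 2 at the high dose in BEAS-2B cells and 2 between the lines at the low dose. With total-count scaling at the high dose, miR-221-3p and miR-222-3p were -0.18 and 0.58 (A549), -0.80 and -0.95 (BEAS-2B), and 0.38 and 0.87 between the A549 doses. Between the untreated lines they were -1.50 and -1.28, and the difference in response was 0.62 and 1.53. Then 1 member passed at each dose in A549 cells, 3 at the low dose and 2 at the high dose in BEAS-2B cells, and 2 between the lines at the low dose. With hsa-miR-21-5p left out of the totals, miR-221-3p and miR-222-3p in BEAS-2B cells were -0.21 and -0.36 against control and -0.0060 and 0.059 between the doses. Then miR-221-3p was -1.04 between the untreated lines, the difference in response was -0.14 and 0.77, and 0 members passed in BEAS-2B cells at the high dose and 2 between the lines at both doses.

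With TMM within each line, miR-221-3p was -0.41 in A549 cells at the high dose, its difference in response was -0.025, and 1 member passed in A549 cells at the low dose. Without scaling, miR-221-3p and miR-222-3p at the high dose were -0.50 and 0.26 (A549) and -0.74 and -0.89 (BEAS-2B). Between the A549 doses they were -0.13 and 0.37, between the BEAS-2B doses 0.094 and 0.16, and between the untreated lines -1.40 and -1.17. The difference in response was 0.24 and 1.15, and 1 member passed in A549 cells at the high dose, 3 and 2 in BEAS-2B cells at the low and high dose, and 0 between the A549 doses. With quantile normalisation, miR-221-3p and miR-222-3p were -0.58 and 0.25 in A549 cells at the high dose, and miR-221-3p was 0 in BEAS-2B cells at the high dose and 0 between the doses in both lines, where its rank was equal. There miR-221-3p was -0.37 between the untreated lines, the difference in response was -0.58 and 0.74, and 1 member passed at each dose in A549 cells, 0 in BEAS-2B cells at the high dose and 2 between the lines at the low dose.

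An ND limit of 7 gave 1 member in A549 cells at the high dose and 2 between the lines at both doses. Without it, 1 passed in A549 cells at the high dose, 2 between the A549 doses, and 4, 2 and 3 between the lines in control, low-dose and high-dose cells. A fold change of at least 2 left 0 in BEAS-2B cells at the high dose, 0 between the A549 doses and 0 between the lines in control and in high-dose cells. An interval wholly beyond 1.4-fold left 0 in BEAS-2B cells at the high dose and 0 between the A549 doses. With an ND of at least 8 required in every library, 3 of the 5 nearest profiles were shared for miR-221-3p and 3 for miR-222-3p. The cause of these shifts was not tested, except that fewer or more members enter under other ND limits.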
